A study of Mus musculus with 12 samples.

Results

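The pyruvate dehydrogenase complex, its kinases and its phosphatases were followed as 10 of the 45563 genes listed with a unique symbol: Pdk1, Pdk2, Pdk3, Pdk4, Pdp1, Pdp2, Pdha1, Pdhb, Dlat and Pdhx. The 10 genes were chosen by symbol, from a list proposed with earlier results of these data in view, so the values below describe them and are not independent support for any pattern among them. RNA was sequenced from primary mouse oligodendrocyte precursor cells (OPCs, the cells that give rise to myelinating oligodendrocytes) in 12 libraries, 3 in each of 4 groups. All cells came from the cortex of pups labelled C57BL/6 (C57BL/6J for WT in the study's methods), of postnatal days 2 to 5 (days 3 to 5 in the study's methods), were taken with beads against PDGFRα, and were grown for 3 days with PDGF-AA and FGF2. WT NS libraries came from wild-type cells given PBS vehicle only (NS, non-stimulated), and WT St libraries came from wild-type cells stimulated for 3 h with TNF, IFNγ and IL1β at 25 ng/mL each (St, stimulated). TNFR2-/- NS and TNFR2-/- St libraries came from cells of mice with a germline knockout of TNFR2, the second receptor for TNF, treated in the same 2 ways. The knockout is carried in the germline and so is not limited to OPCs.

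The libraries held 26886878 to 30335265 read pairs, of which 99.947% to 99.971% lay on genes with a unique symbol. Tnfrsf1b, the gene of TNFR2, had 12 to 24 reads in WT NS, 61 to 145 in WT St, 213 to 346 in TNFR2-/- NS and 282 to 356 in TNFR2-/- St libraries. The knocked-out gene was thus higher in the libraries labelled TNFR2-/-, and since reads are given per gene, those over a deleted part could not be separated. Groups are named by their labels throughout, and each direction between genotypes rests on those labels. Markers of OPCs (7 genes, with Pdgfra, Olig1 and Olig2 among them) summed to 6500 to 9220 RPM (reads scaled to a common library total) across the 12 libraries. The 7 astrocyte markers summed to 1900 to 2210 RPM in WT NS, 1830 to 1900 in WT St, 2750 to 4390 in TNFR2-/- NS and 2820 to 4390 in TNFR2-/- St, with none of the 7 at 0 in any library. They were higher in the libraries labelled TNFR2-/- for 7 of 7 genes in both conditions, and 1 of them without and 2 with stimulation passed the test. Microglial markers summed to 9.91 to 12.9 RPM. Library by library, the astrocyte sum was highest in TNFR2-/- culture 5, at 4390 RPM both without and with stimulation. Here and below, same-numbered NS and St libraries of a genotype were taken as a culture, which the sample titles do not state.

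Pyruvate, the end product of glycolysis, enters mitochondria and is turned into acetyl-CoA by the pyruvate dehydrogenase complex, which so links glycolysis to the citric acid cycle and to lipid synthesis. The complex holds a decarboxylase (E1, from Pdha1 and Pdhb), an acetyltransferase core (E2, from Dlat), a dihydrolipoyl dehydrogenase (E3, from Dld) and a protein that binds E3 to the core (Pdhx). Pyruvate dehydrogenase kinases (Pdk1 to Pdk4) phosphorylate E1 and shut the complex down, and the phosphatases Pdp1 and Pdp2 reverse it. In glia this step is known for setting how much pyruvate is oxidised rather than released as lactate, and Pdk2 and Pdk4 are known to be higher in astrocytes than in neurons.

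The promoters of Pdk2, Pdk4 and Pdp2 are shown because these were the 3 genes that passed the test between genotypes without stimulation. Each stretch runs 5′ to 3′ on the gene's own strand, from 250 to 36 bases before the start of the RefSeq transcript in GRCm38.p6, and ends before the first base of the annotated gene. Capitals mark motifs found on either strand, of which the first is the E box CACGTG. The CCAAT box is also marked, and appears as ATTGG where it lies on the opposite strand. The GC box GGGCGG is marked in the same way.
Pdk2, chr11:95041407-95041621, minus strand: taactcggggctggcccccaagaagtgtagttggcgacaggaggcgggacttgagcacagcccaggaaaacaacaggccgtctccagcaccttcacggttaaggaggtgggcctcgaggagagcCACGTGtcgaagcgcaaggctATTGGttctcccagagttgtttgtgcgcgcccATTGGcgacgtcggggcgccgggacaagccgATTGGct
Pdk4, chr6:5496314-5496528, minus strand: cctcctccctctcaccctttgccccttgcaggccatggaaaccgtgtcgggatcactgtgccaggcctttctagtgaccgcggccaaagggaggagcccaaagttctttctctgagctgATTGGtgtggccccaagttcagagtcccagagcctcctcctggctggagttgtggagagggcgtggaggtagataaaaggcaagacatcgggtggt
Pdp2, chr8:104591222-104591436, plus strand: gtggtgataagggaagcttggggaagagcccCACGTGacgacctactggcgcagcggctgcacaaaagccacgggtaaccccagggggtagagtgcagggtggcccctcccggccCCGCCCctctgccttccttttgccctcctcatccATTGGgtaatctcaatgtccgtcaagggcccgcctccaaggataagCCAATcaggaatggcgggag

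RefSeq promoters of 300 bases (250 before and 50 after the start) were matched for 9 of the 10 genes, and Pdp1 had no entry. Pdk2 held an E box at position -126 and 3 CCAAT boxes at the start shown, and no match to any of the motifs at its second RefSeq start. Pdp2 held an E box at -219, 2 CCAAT boxes and 1 GC box, and Pdk4 1 CCAAT box. Of 32851 RefSeq promoters of that length, 7.15% held the E box, 37.4% the CCAAT box and 35.7% the GC box, on either strand. The core of the hypoxia response element (ACGTG, held by 19.6% of all promoters) lies within the E box on both strands, and was found in Pdk2, Pdp2, Pdk3 and Pdhb. No match was found in the 9 genes for a FOXO site (TGTTTAC, 3.65% of all promoters), for the core site of estrogen-related receptors (AAGGTCA, 4.72%) or for a STAT site (TTCNNNGAA, 8.30%). A match is a run of letters and not a shown binding site.

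All 10 genes passed the filter on low values and were tested in 18081 genes with limma on log2(FPKM + 0.5), where FPKM are the deposited fragments per kilobase, scaled to library size. A gene is said to rise, fall or be called when its adjusted p was at most 0.05 (Benjamini-Hochberg over all genes tested), its change on that scale at least 1.5-fold and its mean at least 1 FPKM. Without stimulation, 3 of the 10 genes were called between genotypes (Pdk2 and Pdk4 higher, Pdp2 lower in TNFR2-/- NS), against 2.90% of all genes tested. At an adjusted p of at most 0.05 alone there were 4, with Dlat added, against 10.9% of all genes. For 8 of the 10 the 2 groups of 3 libraries did not overlap (7 higher, 1 lower), which held for 34.2% of all genes. The median log2 difference was 0.20 over the 10 genes and 0.04 over all genes tested.

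**Figure D1:**
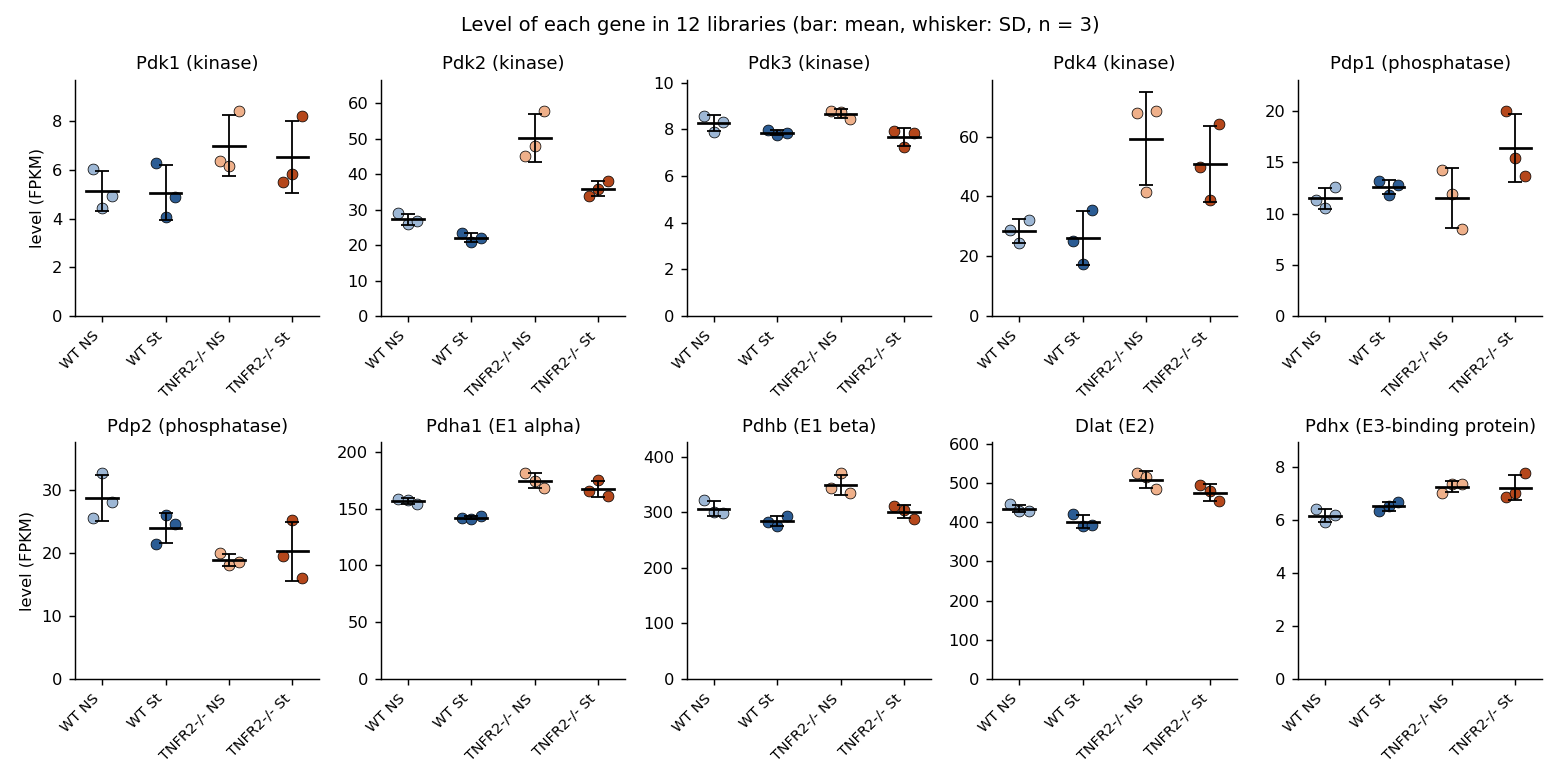
Level (FPKM) of each of the 10 genes in 12 libraries, with 1 point for each library, a bar at the mean of its group and a whisker for the SD (n = 3). Pdk2 lay at 26.1 to 29.0 in WT NS and at 45.1 to 58.0 in TNFR2-/- NS, while Pdk3 stayed between 7.22 and 8.80 in all libraries, and FPKM are not comparable between panels.

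Pdk2, a kinase of the complex found in most tissues (chr11:95026258-95041354, minus strand of GRCm38), gave the smallest adjusted p of the 10 genes. Its levels were 29.0, 26.1 and 26.9 FPKM in the WT NS libraries and 45.1, 48.0 and 58.0 FPKM in the TNFR2-/- NS libraries. Every TNFR2-/- NS library was above every WT NS library. The log2 difference was 0.86 ± 0.09 (SE; fold 1.82; adjusted p = 0.00359, limma), which ranked 13 of 18081 genes by p. With stimulation the same order was seen, at 23.4, 21.1 and 22.0 FPKM in WT St and 33.9, 35.8 and 38.2 FPKM in TNFR2-/- St. Pdk2 was called there too, with a log2 difference of 0.69 ± 0.09 (fold 1.61; adjusted p = 0.00973). Without TNFR2-/- NS library 5, where the astrocyte markers were highest, the difference without stimulation was 0.76 (adjusted p = 0.00689), and without TNFR2-/- St library 5 the difference with stimulation was 0.64 (adjusted p = 0.0351). The call without stimulation was lost when only the 6 libraries compared were fitted (adjusted p = 0.0741), a fit that called 7 genes in all. An antisense gene, Gm11513, overlaps Pdk2 and held at most 3 reads in any library.

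Pdk4, the kinase known for its rise in fasting and in tissues that burn fatty acids (chr6:5483351-5496309, minus strand), was the least abundant of the 4 per length but had the widest range of group means. It was measured at 28.9, 24.3 and 32.1 FPKM in WT NS (93, 70 and 103 reads) and at 68.0, 41.4 and 68.7 FPKM in TNFR2-/- NS (219, 134 and 223 reads). The groups did not overlap, although TNFR2-/- library 4 lay nearer to WT than the other 2. The log2 difference was 1.02 ± 0.28 (SE; fold 2.03; adjusted p = 0.0436, limma). This call was lost without any of several single libraries: the adjusted p was 0.0764, 0.151 and 0.0975 without WT NS library 2, 3 or 4, 0.117 and 0.138 without TNFR2-/- NS library 2 or 5, 0.06 without WT St library 2 and 0.0604 without TNFR2-/- St library 2. It was also lost without the filter on low values (0.0808), without the trend of the prior (0.0512) and with only the 6 libraries compared (0.0802).

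With stimulation Pdk4 was at 25.2, 17.4 and 35.4 FPKM in WT St and at 49.8, 38.9 and 64.1 FPKM in TNFR2-/- St. The groups again did not overlap, and the log2 difference of 0.99 ± 0.28 missed the threshold (adjusted p = 0.0622). In the fit blocked by culture it passed (adjusted p = 0.0435), as it did without TNFR2-/- NS library 4 (adjusted p = 0.0461).

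Pdk1, a kinase known as a target of the hypoxia-inducible factor HIF (chr2:71873224-71903858, plus strand), was not called. Its levels were 6.01, 4.43 and 4.93 FPKM in WT NS and 6.36, 6.17 and 8.42 FPKM in TNFR2-/- NS, so that the groups lay apart by a small gap, with the highest value again in library 5. The log2 difference was 0.41 ± 0.19 (adjusted p = 0.187). Pdk3, the X-linked kinase (chrX:93764607-93832201, minus strand), was at 8.58, 7.88 and 8.32 FPKM in WT NS and 8.80, 8.76 and 8.46 FPKM in TNFR2-/- NS. These groups overlapped, and the log2 difference of 0.07 had a 95% interval of -0.09 to 0.22.

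Levels of different genes were compared as RPM for each kilobase of annotated exon, since the divisor behind the FPKM did not follow the length of the genes. For Pdk4 that divisor was 107 bases against 3511 annotated exon bases, and for Pdhx it was 10495 against 3930. On this scale WT NS libraries held 12.1 ± 0.520 of Pdk3, 8.06 ± 0.440 of Pdk2, 1.67 ± 0.264 of Pdk1 and 0.868 ± 0.119 of Pdk4 (mean ± SD, n = 3). Pdk3 and Pdk2 thus made up most of the kinase reads, and the ranges of neighbours in this order did not overlap in WT NS. In TNFR2-/- NS, Pdk2 was at 14.9 ± 2.0 and Pdk3 at 12.7 ± 0.275, with the lowest Pdk2 library (13.3) above the highest Pdk3 library (12.9). In TNFR2-/- St the 2 kinases could not be told apart, at 10.6 ± 0.639 and 11.2 ± 0.562.

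As a share of the 4 kinases per kilobase, Pdk2 took 34.9% to 35.9% in WT NS, 31.4% to 32.3% in WT St, 43.8% to 49.8% in TNFR2-/- NS and 40.1% to 43.6% in TNFR2-/- St. The Pdk3 share ran the other way, with 52.5% to 53.9%, 54.6% to 58.5%, 36.1% to 42.5% and 42.0% to 46.6%. Pdk4 took 3.46% to 4.31% in WT NS and 4.16% to 6.83% in TNFR2-/- NS, and these shares overlapped. With the length of the longest transcript in place of all exons the Pdk2 mean was 38.6% in WT NS and 50.2% in TNFR2-/- NS. The shares are descriptions and were not tested.

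**Figure D2:**
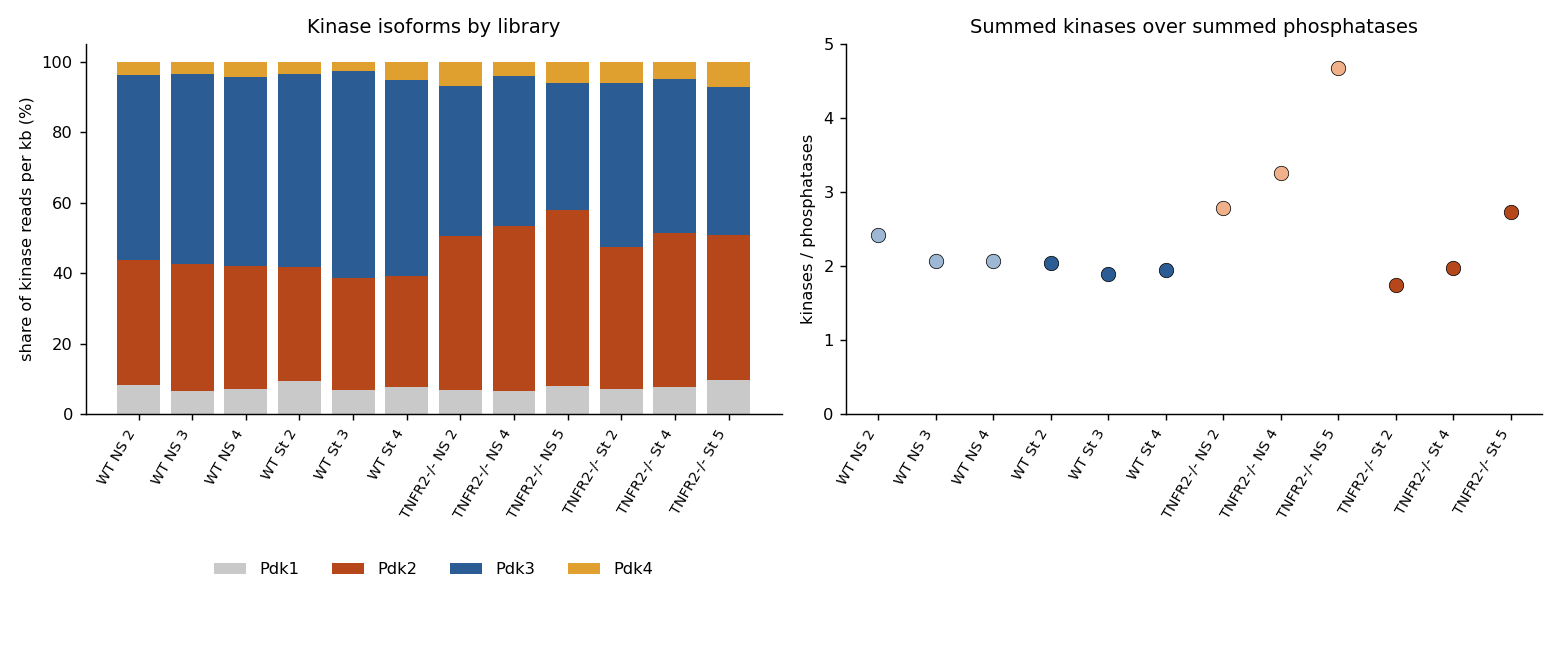
Left, share (%) of Pdk1, Pdk2, Pdk3 and Pdk4 in their summed reads per kilobase of exon in each of 12 libraries. Right, summed kinases over summed phosphatases (Pdp1 and Pdp2) on the same scale, which lay at 2.06 to 2.42 in WT NS and at 2.78 to 4.67 in TNFR2-/- NS.

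Pdp2, a phosphatase that reactivates the complex (chr8:104591451-104599026, plus strand), was the 1 gene of the 10 called lower. It was at 25.5, 32.6 and 28.1 FPKM in WT NS and at 19.9, 18.0 and 18.6 FPKM in TNFR2-/- NS. Every TNFR2-/- NS library was below every WT NS library, and the log2 difference was -0.59 ± 0.15 (SE; fold 0.664; adjusted p = 0.0366, limma), close to the fold threshold. The call was lost without WT NS library 3 (adjusted p = 0.138) or 4 (0.1), without TNFR2-/- NS library 2 (0.0738), 4 (0.062) or 5 (0.102), without WT St library 4 (0.0572) and without TNFR2-/- St library 2 (0.0513). A pseudocount of 1 and weights for each library brought the log2 difference to -0.58 and -0.53, under the fold threshold. It was also lost without the filter on low values (adjusted p = 0.0641) and with only the 6 libraries compared (0.0761). With stimulation the levels were 21.4, 26.0 and 24.5 FPKM in WT St and 19.6, 25.2 and 15.9 FPKM in TNFR2-/- St, which overlapped (log2 difference -0.26, 95% interval -0.59 to 0.08).

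Pdp1, the other phosphatase, known to respond to calcium (chr4:11958184-11966452, minus strand), was at 11.3, 10.6 and 12.6 FPKM in WT NS and at 14.3, 11.9 and 8.48 FPKM in TNFR2-/- NS. TNFR2-/- NS libraries lay on both sides of WT, and the log2 difference was -0.02 with a 95% interval of -0.42 to 0.38. With stimulation it was at 13.2, 11.8 and 12.8 FPKM in WT St and at 20, 15.5 and 13.6 FPKM in TNFR2-/- St, all above WT St, with a log2 difference of 0.35 ± 0.18 (adjusted p = 0.243).

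Summed per kilobase, the 4 kinases stood at 22.7 ± 1.27 in WT NS, 20.5 ± 0.983 in WT St, 31.7 ± 2.33 in TNFR2-/- NS and 25.5 ± 1.68 in TNFR2-/- St, and the 2 phosphatases at 10.4 ± 0.523, 10.5 ± 0.189, 9.19 ± 1.78 and 12.2 ± 2.11 (mean ± SD, n = 3). Their ratio was 2.42, 2.06 and 2.07 in WT NS and 2.78, 3.26 and 4.67 in TNFR2-/- NS. With stimulation it was 2.04, 1.89 and 1.94 in WT St and 1.75, 1.97 and 2.73 in TNFR2-/- St. The ratio was apart between genotypes without stimulation, and overlapped with it. It is a ratio of transcripts, and neither the phosphorylation nor the activity of the complex was measured here.

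Each subunit was above every kinase in mean level per kilobase in each group, with Pdhx nearest to them (16.4 against 12.1 for Pdk3 in WT NS). Per kilobase of exon, WT NS libraries held 57.9 ± 0.929 of Pdha1, 36.2 ± 1.5 of Pdhb, 27.1 ± 0.602 of Dlat and 16.4 ± 0.661 of Pdhx (mean ± SD, n = 3), in that order in every group and without overlap of neighbours. The Pdhb transcripts share 3.50% of their stretches of 100 bases with the gene Gm6123 (6 to 17 reads), and Pdha1 shares 9.09% with Map3k15 on the opposite strand (56 to 87 reads), while the strand used in counting was not stated.

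Dlat, the E2 core (chr9:50634633-50659780, minus strand), was at 446, 429 and 429 FPKM in WT NS and at 525, 517 and 484 FPKM in TNFR2-/- NS. Every TNFR2-/- NS library was higher, by a small margin, and the log2 difference was 0.22 ± 0.05 (SE; fold 1.17; adjusted p = 0.029, limma), below the fold threshold. With stimulation it was at 420, 391 and 393 FPKM in WT St and at 495, 479 and 454 FPKM in TNFR2-/- St, with a log2 difference of 0.25 ± 0.05 (adjusted p = 0.033).

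Pdha1, the catalytic E1 subunit that the kinases phosphorylate (chrX:160122209-160138413, minus strand), was at 159, 157 and 154 FPKM in WT NS and at 181, 174 and 169 FPKM in TNFR2-/- NS. The groups did not overlap, and the log2 difference was 0.16 ± 0.05 (adjusted p = 0.059). With stimulation, at 142, 141 and 143 FPKM in WT St and 166, 175 and 161 FPKM in TNFR2-/- St, the log2 difference was 0.23 ± 0.05 (adjusted p = 0.0278), again below the fold threshold.

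Pdhb, the other E1 subunit (chr14:8165996-8173025, minus strand), was at 322, 300 and 299 FPKM in WT NS and 344, 370 and 336 FPKM in TNFR2-/- NS, apart by a narrow gap (log2 difference 0.19, adjusted p = 0.0529). In stimulated cells Pdhb overlapped between genotypes, at 275 to 293 and 289 to 311 FPKM (log2 difference 0.09, 95% interval -0.04 to 0.21). Pdhx, which binds E3 to the core (chr2:103021075-103073513, minus strand), was at 5.90 to 6.39 FPKM in WT NS and 7.01 to 7.36 FPKM in TNFR2-/- NS (log2 difference 0.22, adjusted p = 0.0832), and at 6.34 to 6.66 and 6.86 to 7.75 FPKM with stimulation (0.14, adjusted p = 0.270).

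Between the stimulated groups, 1 of the 10 genes was called (Pdk2, higher in TNFR2-/- St), against 1.80% of all genes tested. At an adjusted p of at most 0.05 alone there were 3 (Pdk2, Pdha1 and Dlat, all higher), against 5.45% of all genes. For 6 of the 10 the groups did not overlap, all higher in TNFR2-/- St, which held for 32.7% of all genes. The median log2 difference was 0.24 over the 10 genes and -0.003 over all genes.

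**Figure D3:**
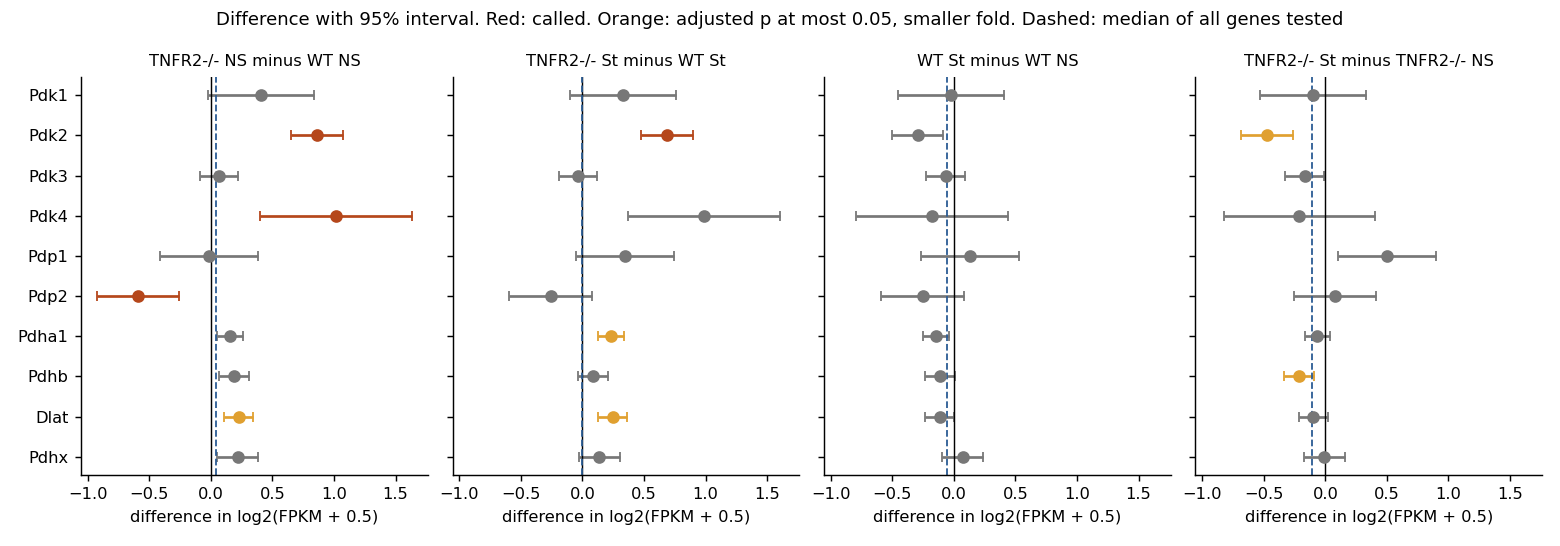
Difference in log2(FPKM + 0.5) for the 10 genes in 4 comparisons, with 95% intervals. Pdk2 differed between genotypes by 0.86 without and 0.69 with stimulation, while the intervals of Pdk3 in these comparisons spanned 0, and the dashed line marks the median of all 18081 genes tested.

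The astrocyte markers moved with genotype beside the calls on Pdk2, Pdk4 and Pdp2. Their sum was 2210, 1950 and 1900 RPM in WT NS and 2950, 2750 and 4390 in TNFR2-/- NS, against 1890, 1830 and 1900 in WT St and 2820, 2880 and 4390 in TNFR2-/- St. TNFR2-/- culture 5, with the highest sum, also had the highest Pdk2 (58.0 and 38.2 FPKM) and Pdk4 (68.7 and 64.1 FPKM) of all libraries in its condition. Pdk4 was nearly as high in TNFR2-/- NS library 2 (68.0 FPKM), where the astrocyte sum was 2950 RPM. Pdp2 was lowest in TNFR2-/- culture 4 without stimulation (18.0 FPKM, against 18.6 in culture 5) and in culture 5 with it (15.9 FPKM). Marker lists of other cell types leaned with genotype too. Of the OPC markers, 3 of 7 were higher in TNFR2-/- cells without and 4 of 7 with stimulation. Among them 1 was called, lower in TNFR2-/- St than in WT St. In the mature oligodendrocyte and the mural and fibroblast lists 0 were called, and their sums overlapped. Mature oligodendrocyte markers were higher in TNFR2-/- cells for 7 of 7 genes without and 4 of 7 with stimulation (median log2 difference 0.41 and 0.10). Mural and fibroblast markers were higher for only 1 of 6 in each condition (median -0.39 and -0.76), and their sum was lowest in culture 5 (106 and 74.8 RPM). Neuron markers were also higher for only 1 of 6 tested in each condition (median -0.21 and -0.06). Endothelial markers were higher for 1 of 4 tested in each (median -0.12 and -0.08), and 0 of either list were called between genotypes. The part of astrocytes and of these cell types in the genotype differences was not tested. In RNA from whole cultures, a change in the number of cells of a type and a change in RNA per cell cannot be told apart.

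**Figure D4:**
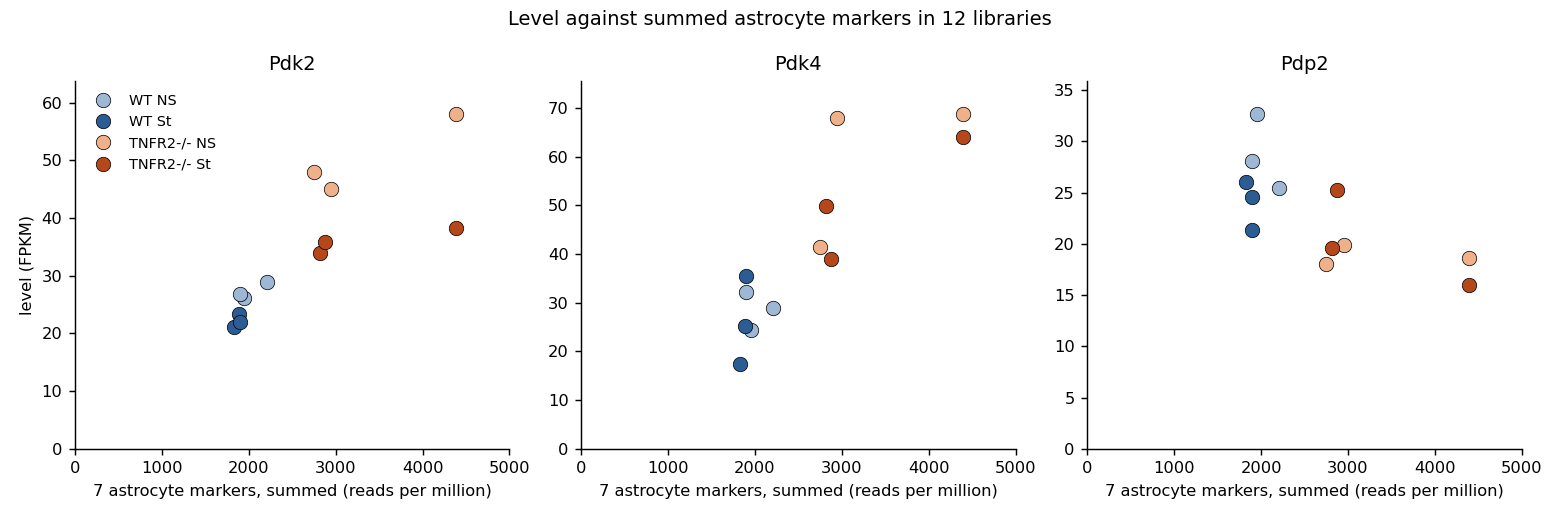
Level (FPKM) of Pdk2, Pdk4 and Pdp2 against the summed RPM of 7 astrocyte markers, 1 point for each of 12 libraries in 4 groups. All 6 TNFR2-/- libraries lie at 2750 or more on the horizontal axis and all 6 WT libraries at 2210 or less, so genotype and marker level separate the libraries in the same way.

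The effect of stimulation was then read within each genotype. Marker sums of 2 cell types moved with stimulation as well. The OPC markers lay at 7910 to 9220 RPM in WT cells without and 6500 to 7450 RPM with stimulation, and at 8210 to 8890 without and 7090 to 7730 RPM with it in TNFR2-/- cells, without overlap. In WT 3 of the 7 were called (1 higher, 2 lower), and in TNFR2-/- cells 1 was (lower). The neuron markers went from 120 to 149 RPM to 465 to 479 RPM in WT cells, and from 108 to 137 RPM to 479 to 553 RPM in TNFR2-/- cells, with 2 of 6 tested called in each genotype (1 higher, 1 lower). The part of these markers in the stimulation results was not tested. In WT cells no gene of the 10 was called by limma, against 7.53% of all genes tested, and none passed at an adjusted p of at most 0.05 alone, against 16.1%. In the limma fit blocked by culture, Pdk2 (adjusted p = 0.00414), Dlat (0.0144) and Pdha1 (0.0227) passed at an adjusted p alone. All were lower in WT St and below the fold threshold, and the share of all genes passing so was not counted. The blocked fit called 1590 of all genes, against 1361 without the block. Without the block, 2 of the 10 had an unadjusted p under 0.05 (Pdk2 and Pdha1), against 27.8% of all genes. The limma-voom fit on reads also called 0 of the 10, and 1426 of all genes. The groups did not overlap for 4 of the 10, all lower in WT St (Pdk2, Pdha1, Pdhb and Dlat), against 37.7% of all genes. The median log2 difference was -0.11 over the 10 genes and -0.06 over all genes.

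In TNFR2-/- cells no gene of the 10 was called by limma, against 10.1% of all genes tested, and 4 had an unadjusted p under 0.05, against 37.6% of all genes. The limma-voom fit on reads also called 0 of the 10, and 1946 of all genes. The counts that follow are again of the limma fit on FPKM. At an adjusted p of at most 0.05 alone there were 2, both lower in TNFR2-/- St (Pdk2 and Pdhb), against 26.0% of all genes. In the limma fit blocked by culture, Pdk2 (adjusted p = 0.000402), Pdhb (0.00584), Dlat (0.0214) and Pdk3 (0.0483), all lower, and Pdp1 (0.0017), higher, passed so. All were below the fold threshold, and the share of all genes passing so was not counted. The blocked fit called 2049 of all genes, against 1824 without the block. The groups were apart for 3 of the 10, all lower (Pdk2, Pdk3 and Pdhb), against 37.3%. The median log2 difference was -0.10 over the 10 genes and -0.11 over all genes, of which 33.6% had a difference above 0 on this scale. After median-of-ratios scaling the differences of Dlat, Pdha1 and Pdhx in TNFR2-/- cells turned to 0.02, 0.05 and 0.10.

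Pdk2 was lower with stimulation in 3 of 3 WT and 3 of 3 TNFR2-/- cultures, by -0.30, -0.30 and -0.28 on the log2 scale in WT cultures 2, 3 and 4 and by -0.41, -0.42 and -0.59 in TNFR2-/- cultures 2, 4 and 5. The log2 difference was -0.30 ± 0.09 in WT (SE; fold 0.815; adjusted p = 0.0595, limma) and -0.47 ± 0.09 in TNFR2-/- cells (fold 0.721; adjusted p = 0.00432), both below the fold threshold. Blocked by culture, the WT difference had an adjusted p of 0.00414. The TNFR2-/- St libraries nonetheless stayed above the WT NS libraries, at 33.9 or more against 29.0 FPKM or less.

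Pdp1 was higher with stimulation in 3 of 3 WT and 3 of 3 TNFR2-/- cultures, by 0.21, 0.16 and 0.03 in WT cultures 2, 3 and 4 and by 0.47, 0.36 and 0.66 in TNFR2-/- cultures 2, 4 and 5. The log2 difference in TNFR2-/- cells was 0.50 ± 0.18 (fold 1.41; adjusted p = 0.0671) and missed both thresholds. It was called without TNFR2-/- NS library 2 (0.66, adjusted p = 0.0258), without TNFR2-/- St library 5 (0.62, adjusted p = 0.0453) and after median-of-ratios scaling (0.61, adjusted p = 0.0392). Blocked by culture, its adjusted p was 0.0017 with the same log2 difference, still below the fold threshold.

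Dlat, Pdk3 and Pdhb were, like Pdk2, lower with stimulation in all 6 cultures. Pdhb had a log2 difference of -0.22 ± 0.06 in TNFR2-/- cells (fold 0.861; adjusted p = 0.0158), at less than the fold threshold. Pdk4 changed by -0.20, -0.47 and 0.14 in WT cultures 2, 3 and 4 and by -0.45, -0.09 and -0.10 in TNFR2-/- cultures 2, 4 and 5. Its log2 difference was -0.18 in WT (95% interval -0.79 to 0.44) and -0.21 in TNFR2-/- cells (95% interval -0.83 to 0.41). In that fit, which does not pair the libraries of a culture, changes of some size in either direction were within the error. Blocked by culture, the same differences had an SE of 0.12 each (adjusted p = 0.331 in WT and 0.209 in TNFR2-/- cells, limma). Pdp2 was lower in 3 of 3 WT cultures, by -0.25, -0.32 and -0.19, and moved by -0.03, 0.48 and -0.22 in TNFR2-/- cultures 2, 4 and 5.

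**Figure D5:**
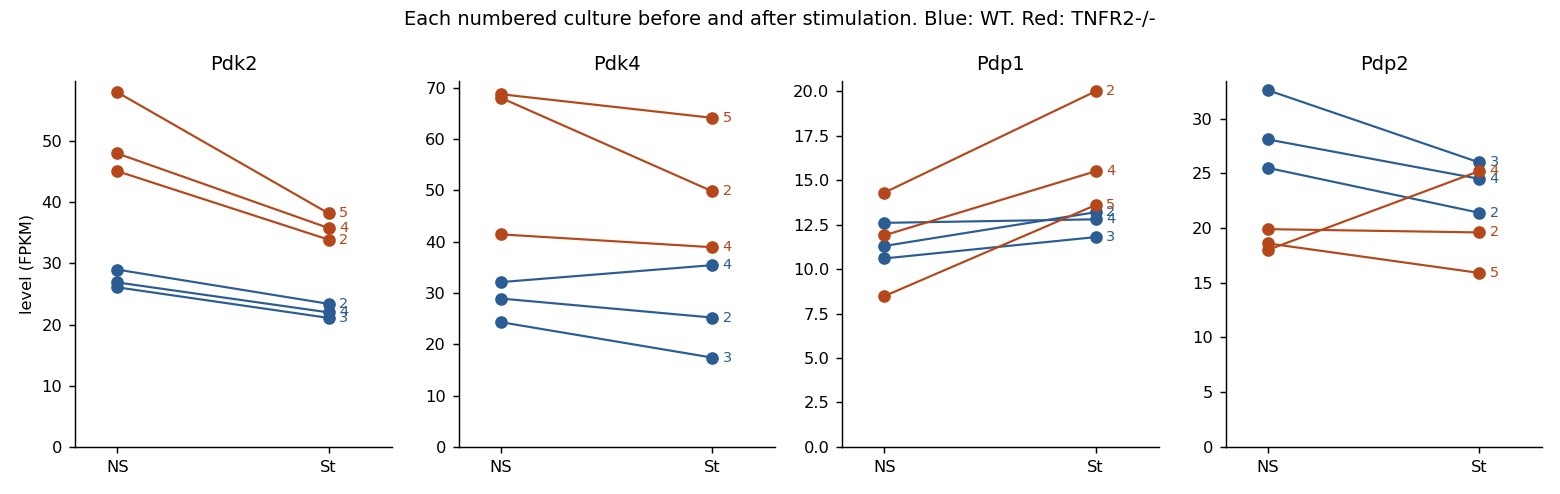
Level (FPKM) of Pdk2, Pdk4, Pdp1 and Pdp2 in each numbered culture without (NS) and with (St) stimulation, joined by a line, blue for WT and red for TNFR2-/-. Pdk2 was lower with stimulation in all 6 cultures and Pdp1 was higher in all 6, while Pdk4 and Pdp2 moved both ways.

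Whether stimulation acted differently in the 2 genotypes was tested as the interaction of genotype and stimulation. None of the 10 genes was called by limma, against 0.00553% of all genes called and 0.00553% passing at an adjusted p alone (1 gene of 18081). The limma-voom fit on reads called 0 of all genes. In the fit without the block by culture, none of the 10 had an unadjusted p under 0.05, against 7.95% of all genes. The differences of differences were 0.37 for Pdp1 (95% interval -0.20 to 0.93), 0.33 for Pdp2 (-0.14 to 0.81), -0.18 for Pdk2 (-0.47 to 0.12) and -0.03 for Pdk4 (-0.91 to 0.84). These intervals do not pair the libraries of a culture. Blocked by culture, limma gave smaller errors, with an SE of 0.1 for Pdp1 (adjusted p = 0.129) and 0.07 for Pdk2 (adjusted p = 0.203). None of the 10 passed at an adjusted p of at most 0.05 there, and unadjusted p were not counted in that fit.

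The remaining genes of the pathway were taken from lists that were set together with the members, and their counts are read against the shares of all genes called given above. Of the other parts of the complex, Dld had 4789 to 6486 reads and was not called, Pdha2 (a testis form of E1) had no reads, and Pdpr, the regulatory subunit of Pdp1, was higher in TNFR2-/- St than in WT St. Pdpr stood at 5.56 ± 0.433 FPKM in WT St and 9.04 ± 0.379 FPKM in TNFR2-/- St (SD, n = 3), with a log2 difference of 0.66 ± 0.14 (adjusted p = 0.0348). Of 9 genes of the related dehydrogenases of 2-oxoglutarate and branched-chain acids, 0 were called by limma between genotypes in either condition. At an unadjusted p under 0.05 there were 5 in each, against 30.2% of all genes without and 26.7% with stimulation. At an adjusted p of at most 0.05 alone, 4 (Ogdhl, Dlst, Bckdha and Bckdk) were higher in TNFR2-/- NS. The median log2 difference of the 9 was 0.34 without and 0.26 with stimulation. The phosphatase Ppm1k, which acts on the branched-chain complex, was the 1 gene of these called with stimulation, in WT (2.36 ± 0.183 to 4.27 ± 0.681 FPKM, log2 difference 0.73, adjusted p = 0.0303). In TNFR2-/- cells Ppm1k went from 2.35 ± 0.564 to 3.86 ± 1.19 FPKM and narrowly missed the call (log2 difference 0.595, adjusted p = 0.0507, limma).

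Of 13 tested genes that supply pyruvate or use it otherwise, 1 was called between genotypes without and 1 with stimulation, and both were Gpt2, the mitochondrial transaminase that joins pyruvate and alanine. Gpt2 was at 1000 ± 91.8 FPKM in WT NS and 1550 ± 67.1 FPKM in TNFR2-/- NS (log2 difference 0.63, adjusted p = 0.00347), and at 871 ± 19.5 and 1360 ± 56.9 FPKM with stimulation (0.64, adjusted p = 0.00355). Ldhb, a lactate dehydrogenase subunit, was higher in TNFR2-/- cells without (0.47, adjusted p = 0.0038) and with stimulation (0.36, adjusted p = 0.0102), below the fold threshold. The median of the 13 was 0.17 without stimulation and 0 with it. The mitochondrial pyruvate carriers Mpc1 and Mpc2, Pkm and Ldha were not called in any of the 4 comparisons. Of 7 tested genes for the cofactors lipoate and thiamine, Mcat was higher in TNFR2-/- NS than in WT NS (0.62, adjusted p = 0.0268) and Lipt2 fell with stimulation in TNFR2-/- cells (-0.61, adjusted p = 0.0332). None of 7 genes that make or use acetyl-CoA or carry citrate was called by limma in any comparison. At an unadjusted p under 0.05 there were 5 in TNFR2-/- NS against WT NS and 5 between stimulated groups, against 30.2% and 26.7% of all genes. For stimulation there were 3 in WT and 6 in TNFR2-/- cells, against 27.8% and 37.6%. Between genotypes without stimulation, 4 passed at an adjusted p alone (Acss1, Crat and Acaa2 higher, Acly lower).

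Targets and regulators of the factors known to control the kinases were counted in the same way. Of 12 HIF targets, 5 rose and 1 fell in WT, and 5 rose in TNFR2-/- cells (median log2 difference 0.14 and 0.19). Hk2, a hexokinase, rose from 12.2 ± 2.25 to 37.5 ± 5.65 FPKM in WT (log2 difference 1.59, adjusted p = 0.000122) and from 12.3 ± 1.99 to 58.1 ± 8.88 FPKM in TNFR2-/- cells (2.19, adjusted p = 8.13e-06). Ndrg1, Egln3 and Slc2a1 also rose in both genotypes, by 0.70 to 1.28 on the log2 scale. Egln3 was in addition higher in TNFR2-/- St than in WT St (0.65, adjusted p = 0.00994).

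Of 9 tested targets of PPAR factors, 1 was called in each of the 4 comparisons (median log2 difference 0.28 between genotypes without stimulation and 0.26 with it). Cpt1a, the enzyme that admits fatty acids to mitochondria, was higher in TNFR2-/- cells without (0.64, adjusted p = 0.00952) and with stimulation (0.64, adjusted p = 0.0102). Angptl4 was near 0.13 FPKM without stimulation and rose to 2.61 ± 1.55 FPKM in WT and 3.72 ± 2.09 FPKM in TNFR2-/- cells. Of 12 targets of the glucocorticoid receptor or FOXO factors, 3 fell in WT, and 4 fell and 1 rose in TNFR2-/- cells (median log2 difference -0.60 and -0.31). Sgk1 fell by -0.96 and -1.53 and Tsc22d3 by -0.95 and -1.37 on the log2 scale in WT and TNFR2-/- cells. Dusp1 (-1.46, adjusted p = 0.0279) and Zbtb16 (-0.90, adjusted p = 0.0419) were lower in TNFR2-/- NS than in WT NS, the 2 of the 12 called there, while 5 of the 12 had a log2 difference above 0.

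Of 16 transcription regulators, 1 rose and 4 fell in WT, and 2 rose and 5 fell in TNFR2-/- cells, with medians of -0.16 and -0.20. Between genotypes limma called none. At an adjusted p of at most 0.05 alone there were 2 in each condition, both higher in TNFR2-/- cells, against 10.9% of all genes without and 5.45% with stimulation. At an unadjusted p under 0.05 there were 3 without and 5 with stimulation, against 30.2% and 26.7% of all genes. Ppard rose from 16.1 ± 0.564 to 33.0 ± 1.42 FPKM in WT and from 16.2 ± 1.24 to 31.2 ± 2.50 FPKM in TNFR2-/- cells. The coactivator Ppargc1a fell from 9.0 ± 0.809 to 4.21 ± 0.054 FPKM in WT and from 11.2 ± 0.411 to 6.56 ± 0.374 FPKM in TNFR2-/- cells, and Ppargc1b fell by -0.93 and -0.90 on the log2 scale. Between genotypes Ppargc1a was higher in TNFR2-/- cells without (0.301, adjusted p = 0.0459, limma) and with stimulation (0.583, adjusted p = 0.0102). The latter lay just under the fold threshold. Hif3a fell by -2.76 and -2.05. Pdk2 and Pdk4 were not called with stimulation in either genotype.

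Pdk4 had the widest range of group means among the 10 genes (1.195 on the log2 scale, with Pdk2 at 1.158). The 5 genes whose log2 levels followed it most closely over the 12 libraries, among 13553 compared at a mean level of 1 FPKM or more, were Acot11 (Pearson r = 0.973), Ccdc71 (0.971), Fcgrt (0.959), Mlc1 (0.958) and Slc39a12 (0.957). The 12 libraries form 4 groups, and the correlation is a description. Acot11, an acyl-CoA thioesterase, was at 3.58 FPKM in WT NS, 2.85 in WT St, 6.04 in TNFR2-/- NS and 5.36 in TNFR2-/- St, and Fcgrt, the neonatal Fc receptor, at 2.18, 2.08, 4.72 and 3.74 FPKM. In the same order of groups, Ccdc71 was at 45.6, 44.4, 59.5 and 56.4 FPKM and Mlc1 at 405, 395, 548 and 522 FPKM. Slc39a12 was at 23.3, 21.1, 36 and 33.2 FPKM. Pdk2 was not among the 5.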

How the data were processed

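The 12 libraries, 3 in each of 4 groups, were sequenced as paired reads. The authors trimmed reads with Trim Galore, counted read pairs per gene with STAR on GRCm38 (Ensembl annotation), used edgeR for their own calls and deposited FPKM in 2 tables, NS and St. The sequencing platform is given differently in the labels and in the methods. Of 45792 entries, 229 sharing one of 99 symbols were left out. All columns of values were used.

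Reads were recovered from the FPKM as whole multiples of 1 read (to within 0.001 reads), for 26636 of 26636 genes above 0 in at least 2 libraries (100.0%). The bases by which the FPKM were divided did not follow gene length, so levels of different genes used reads per kilobase of GENCODE M21 exons. limma 3.58.1 in R 4.3.3 was fitted to log2(FPKM + 0.5) with 4 group means and a trended prior, on the 18081 genes that averaged 0.1 FPKM or more, with p adjusted by Benjamini-Hochberg. Fold changes are on that scale and understate low genes. The fit was tested on simulated data. limma-voom on the recovered reads called 623, 1426, 1946 and 436 genes where the FPKM gave 524, 1361, 1824 and 325 (TNFR2-/- NS against WT NS, WT St against WT NS, TNFR2-/- St against TNFR2-/- NS, TNFR2-/- St against WT St). Intervals cover the spread between libraries.

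Same-numbered NS and St libraries of a genotype deviated together (r of 0.34 to 0.65 in 6 pairs, -0.45 to 0.09 in 12 pairs of other numbers). A number was therefore taken to mark a culture within a genotype. The sample titles do not say what the number stands for, and the shared source of these deviations was not tested. Same-numbered libraries of different genotypes did not deviate so (-0.06 to 0.20). Pathway genes named are those called in at least 1 comparison, at most 4 for each list by size of change, and Dld, Pdha2, Ldhb, Ogdhl, Dlst, Bckdha, Bckdk, Acss1, Crat, Acaa2, Acly, Mpc1, Mpc2, Pkm and Ldha were added after their values were seen. The members and lists were chosen with earlier results of these data known. Sequences come from RefSeq on GRCm38.p6. Nothing in the labels says that replicates came from separate animals, so p-values measure the spread between these libraries.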

Additional observations from a re-analysis of the deposited data

How the results depend on the processing

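For the 10 genes in 5 comparisons, 1125 of 1190 values under other settings kept direction and side of the threshold, 22 lost a call, 10 gained one and 33 changed sign, none of the last for a called value. Of the 3 genes called in TNFR2-/- NS against WT NS, 1 was called without the filter on low values, 0 with only the 6 libraries compared, and 1 to 3 with a library left out. Between stimulated groups the count of 1 became 2 with the replicate block by culture, 3 by adjusted p alone and 1 to 2 with a library left out. For stimulation in TNFR2-/- cells the count of 0 became 1 after median-of-ratios scaling, 2 by adjusted p alone and 0 to 1 with a library left out. The block by culture changed no other count of calls, although more of the 10 genes passed there at an adjusted p alone for stimulation in each genotype. The share of all genes passing so was not counted. For stimulation, the blocked fit called 1590 of all genes in WT and 2049 in TNFR2-/- cells, against 1361 and 1824 without the block. Median-of-ratios scaling moved the median of all genes for stimulation in TNFR2-/- cells from -0.109 to -0.016. The calls went from 978 higher and 846 lower to 1107 and 559. Quantile normalization moved those of TNFR2-/- NS against WT NS from 293 and 231 to 213 and 261. The cause of these shifts was not tested.

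The uncalled log2 differences that changed sign did so as follows. Between genotypes without stimulation, Pdk3 came to -0.02 after quantile normalization, and Pdp1 to 0.13 with library weights and to -0.18 to 0.18 with a library left out. For stimulation in WT, Pdk1 came to 0.03 after median-of-ratios scaling and ranged from -0.17 to 0.11 with a library left out, and Pdk4 from -0.42 to 0.08. For stimulation in TNFR2-/- cells, median-of-ratios scaling gave 0.01 for Pdk1, 0.05 for Pdha1, 0.02 for Dlat and 0.1 for Pdhx, and quantile normalization 0.04 for Pdhx. With a library left out there, Pdk1 ranged from -0.27 to 0.03, Pdp2 from -0.09 to 0.23 and Pdhx from -0.06 to 0.02. Between stimulated groups Pdk3 ranged from -0.06 to 0. In the interaction, Pdk1 came to 0 after quantile normalization and Pdk4 to 0.02 after median-of-ratios scaling, and with a library left out Pdk1 ranged from -0.24 to 0.07, Pdk4 from -0.29 to 0.21 and Dlat from -0.02 to 0.05. Where a library left a group with 2, the spread was shared over all groups.

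Kinase shares depend on the length used: with the deposited FPKM, Pdk4 would take 41.1% in WT NS. With 3 libraries a group, intervals were wide for Pdk4, Pdp1 and Pdp2, and Pdk4 rested on 56 to 223 reads in a library.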
